A study of Mus musculus with 4 samples.

Results

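The smooth muscle contractile genes are 10 genes listed by symbol, namely Acta2, Cnn1, Actg2, Myh11, Tagln, Des, Lmod1, Synpo2, Myl9 and Tpm2. All 10 were found in both deposited tables, among 23284 genes in all. Their levels were read from total RNA of whole C57BL/6 mouse lung, sequenced as 4 libraries, 1 for each group. The house dust mite (HDM) pair held a wild-type and an Il22 knockout (IL22-/-) library, both from animals made allergic to HDM extract and re-exposed to it, a model of asthma, with lungs collected 48 h after the final dose. The other pair came from wild-type mice only, collected 24 h after recombinant interleukin-22 (IL-22), or phosphate-buffered saline (PBS) as its control, was given into the trachea. The labels give the knockout only as IL22-/-, and none gives age, the number of mice or pooling. The comparisons ask how smooth muscle transcripts stood in the allergic lung without Il22 and in a lung given IL-22 without allergen.

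Smooth muscle cells wrap the airways and blood vessels of the lung and set their width. They contract when calcium and calmodulin switch on myosin light chain kinase, which phosphorylates the regulatory light chain of smooth muscle myosin and lets it pull on actin filaments anchored in dense bodies and an intermediate filament network. The genes of this apparatus are held in common by serum response factor (SRF), which binds CArG boxes in their promoters and introns, and by its cofactor myocardin. Thickened airway smooth muscle is a known feature of asthma.

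Because CArG boxes are the shared element of this gene class, the promoters were read from the RefSeq sequences of build GRCm38.p6, from 250 bases before to 50 after the annotated start. A CArG box was searched on both strands at once, since its pattern of a CC and a GG around 6 bases of A or T is its own reverse complement. Promoters were matched for 7 of the 10 genes (Acta2, Cnn1, Des, Lmod1, Myl9, Synpo2 and Tpm2). Among all 32851 promoters of this length 1.63% held the box, and 8.50% held a form in which 1 of the 6 central bases was C or G. Only Myl9 and Acta2 had either form within this window. Both are shown with the boxes in capitals, because they are the promoters of this set in which a match was found.
Acta2, minus strand, chr19:34255324-34255623: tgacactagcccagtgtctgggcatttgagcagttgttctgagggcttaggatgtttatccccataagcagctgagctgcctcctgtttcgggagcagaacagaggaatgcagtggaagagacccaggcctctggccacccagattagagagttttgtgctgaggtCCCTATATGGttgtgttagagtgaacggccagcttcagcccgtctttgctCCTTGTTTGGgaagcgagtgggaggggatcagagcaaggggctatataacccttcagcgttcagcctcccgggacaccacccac
Myl9, plus strand, chr2:156775214-156775513: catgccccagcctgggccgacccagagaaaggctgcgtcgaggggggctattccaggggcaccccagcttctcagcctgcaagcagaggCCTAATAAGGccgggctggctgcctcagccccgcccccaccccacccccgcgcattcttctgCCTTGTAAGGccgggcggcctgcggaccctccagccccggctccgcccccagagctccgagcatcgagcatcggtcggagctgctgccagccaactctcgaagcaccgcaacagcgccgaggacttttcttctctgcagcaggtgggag
In Acta2 both boxes, CCCTATATGG and CCTTGTTTGG, are of the form with 1 central base changed, and their 5′ edges lie 84 and 34 bases before the start. In Myl9 a full box, CCTAATAAGG, begins 161 bases before the start, and the changed form CCTTGTAAGG begins 99 bases before it. A match is a description of the letters, and the absence of one in the other 5 windows says only that the letters are not there.

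The values were FPKM, fragment numbers scaled to transcript length and to the library, so levels can be compared between genes of a library. Levels of different pairs are set side by side only as listed, since a shared normalization of the 2 tables is not known. A difference is knockout minus wild type, or IL-22 minus PBS, on the log2(FPKM + 1) scale. A gene was measured if its mean FPKM in the pair reached 1, and met the size rule, as higher or lower, if its difference reached 1 either way. With 1 library per group there was no test, and none of the differences has a replicate check. In such bulk RNA, fewer smooth muscle cells and less RNA per cell cannot be told apart. The estimated depth was lowest with PBS and highest with IL-22, at 0.801 and 1.16 times that of the wild-type HDM library. Il22 itself stood at 0.362 FPKM after HDM in wild type and was listed at 0 in the other 3 libraries. The alveolar marker Sftpc was at 30749 and 37820 FPKM in the HDM pair and at 35759 and 31732 in the other. It is 1 of 9 alveolar markers, and others of them differed more, such as Ager at 3129 with PBS and 2100 with IL-22. Of the 9, 5 lay above 0 in the HDM pair and 2 in the other.

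After HDM all 10 genes had lower values in the knockout than in wild type, and all 10 had higher values with IL-22 than with PBS. The median difference was -0.38 in the HDM pair, with single genes from -1.01 to -0.07, and 0.87 between PBS and IL-22, with genes from 0.63 to 1.42. Among all measured genes 46.1% lay below 0 in the HDM pair and 58.6% above 0 in the other, and the medians over all genes were 0.03 and 0.04. Both directions together, below 0 and then above 0, were found for 27.8% of the 12902 genes measured in both pairs. By the size rule 1 of the 10 was lower in the HDM pair, against 2.42% of all genes, and 3 were higher with IL-22, against 0.597%. With the size rule set at 1.5-fold on the same log2(FPKM + 1) scale, the counts were 3 of 10, against 6.41%, and 10 of 10, against 1.96%. Synpo2 in the HDM pair fell short on this scale, at -0.52, though its FPKM was 1.55-fold higher in wild type. The members were chosen with such results known, so these counts are a description.

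**Figure D1:**
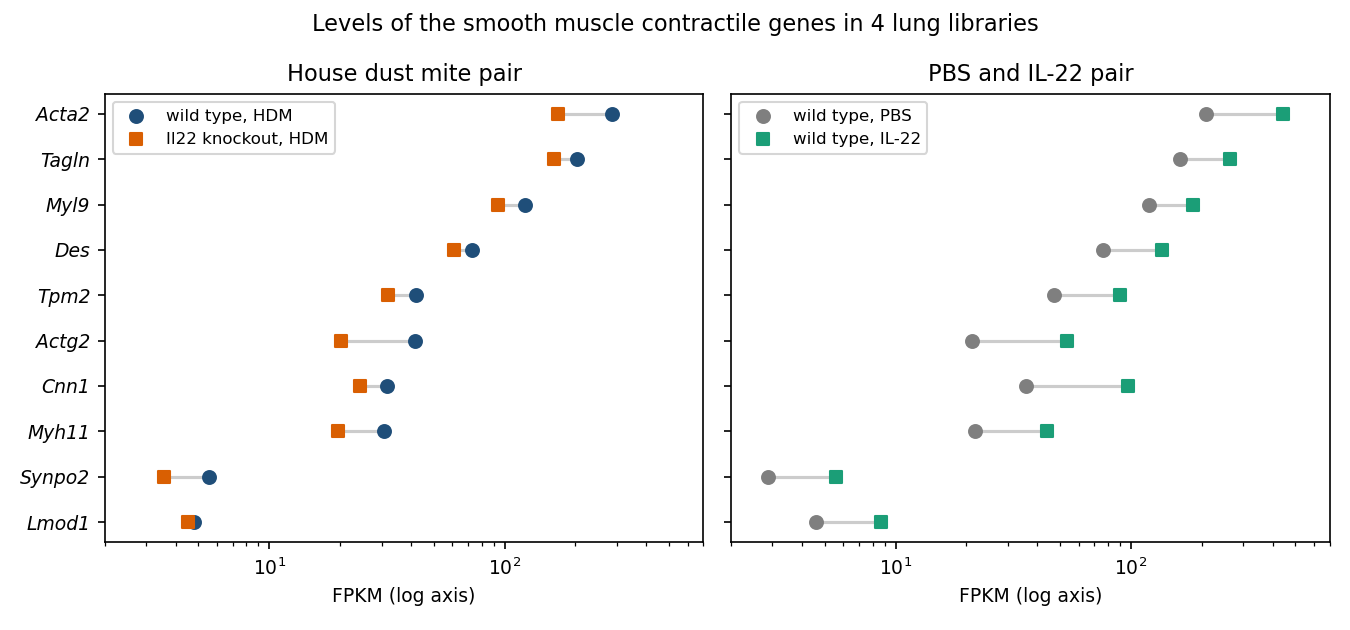
FPKM on a log axis for each of the 10 genes, in the HDM pair (left) and the PBS and IL-22 pair (right), with 1 point per library and a grey line joining the pair. Every knockout point lies left of its wild-type point and every IL-22 point right of its PBS point, with the smallest gap for Lmod1 in the HDM pair.

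The actins form the thin filaments. Acta2 (NM_007392, chromosome 19, 34241090 to 34255590 of mm10, 9 exons), alpha smooth muscle actin, is the usual marker of smooth muscle and of myofibroblasts. Its FPKM after HDM was 286 in wild type and 169 in the knockout, and it was 209 with PBS and 445 with IL-22. The IL-22 library was thus the highest and the knockout the lowest, and the differences were -0.75 and 1.09. In the HDM pair 4.25% of all measured genes had a difference as low or lower, and in the other pair 0.529% had one as high or higher. Actg2 (NM_009610, chromosome 6, 83512905 to 83536265), gamma smooth muscle actin of visceral muscle, had the lowest difference of the 10 in the HDM pair, -1.01, at 41.7 FPKM in wild type and 20.1 without Il22. It was at 21.1 with PBS and 53.5 with IL-22, a difference of 1.30. The level of Acta2 was 6.85 times that of Actg2 in the wild-type HDM library, 8.41 times in the knockout, 9.91 times with PBS and 8.32 times with IL-22. These ratios are taken within a library and do not depend on its scaling.

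Myosin and its light chain make the thick filament and its switch. Myh11 (NM_013607, chromosome 16, 14194535 to 14291372, 42 exons), the smooth muscle myosin heavy chain and the member most restricted to mature smooth muscle, had 30.7 FPKM after HDM in wild type and 19.6 without Il22, which puts the difference at -0.62. With PBS it was at 21.8 and with IL-22 at 43.9, a difference of 0.98 that falls just short of the size rule. Myl9 (NM_172118, chromosome 2, 156775420 to 156781658), the regulatory light chain that the kinase phosphorylates, was at 122 and 93.4 FPKM in the HDM pair and at 119 and 184 in the other. Its difference with IL-22, 0.63, was the smallest of the 10, and still 1.70% of measured genes had one as high or higher.

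Tpm2, Cnn1, Tagln and Lmod1 bind actin filaments. Tpm2 (NM_009416, chromosome 4, 43514711 to 43523765), beta-tropomyosin, which lies along the filament and is also made by skeletal muscle, was at 42.0 and 32.1 FPKM in the HDM pair and at 47.0 and 90.3 with PBS and IL-22. Cnn1 (NM_009922, chromosome 9, 22099216 to 22109630), basic calponin, which restrains the myosin ATPase, was at 31.7 and 24.2 FPKM in the HDM pair and at 35.9 and 97.6 in the other. Its difference of 1.42 with IL-22 was the largest of the 10 and the 39th highest among 13233 measured genes, while its difference of -0.37 in the HDM pair was near the median of the 10. Tagln (NM_011526, chromosome 9, 45929619 to 45936058), transgelin or SM22, an early smooth muscle marker, was at 203 and 162 FPKM in the HDM pair and at 162 and 264 in the other, with differences of -0.33 and 0.70. The knockout HDM and PBS libraries were equal for Tagln to this precision. Lmod1 (NM_053106, chromosome 1, 135324807 to 135368065), leiomodin, which nucleates actin filaments in smooth muscle, was at 4.80 and 4.51 FPKM in the HDM pair. Its ratio of knockout to wild type, 0.941, had a 95% counting interval of 0.825 to 1.07, so a difference was not detectable at this depth. With PBS and IL-22 it was at 4.60 and 8.71, a difference of 0.79.

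Des and Synpo2 hold the contractile apparatus together. Des (NM_010043, chromosome 1, 75360329 to 75368579), desmin, the intermediate filament of smooth, heart and skeletal muscle, was at 72.4 and 61.2 FPKM in the HDM pair and at 76.5 and 136 in the other. The differences were -0.24 and 0.82. Synpo2 (NM_080451, chromosome 3, 123076519 to 123236149), synaptopodin-2 or myopodin, an actin-bundling protein that is also found in heart and skeletal muscle, was at 5.56 and 3.58 FPKM in the HDM pair, a difference of -0.52. With PBS it was at 2.87 and with IL-22 at 5.61, a difference of 0.77. The PBS library was its lowest, and its values after HDM in wild type and with IL-22, 5.56 and 5.61, were nearly level as listed in different tables.

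Estimated reads per library ranged from 345 for Lmod1 with PBS to 23585 for Acta2 with IL-22, so counting error was small beside most of these differences. The exact 95% counting interval of the ratio of knockout to wild type lay below 1 for every gene but Lmod1, from 0.437 to 0.533 for Actg2 up to 0.813 to 0.880 for Des. The interval of the ratio of IL-22 to PBS lay above 1 for all 10, from 1.47 to 1.63 for Myl9 up to 2.57 to 2.88 for Cnn1. The intervals cover counting error only and compare these libraries, not the genotypes or treatments.

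**Figure D2:**
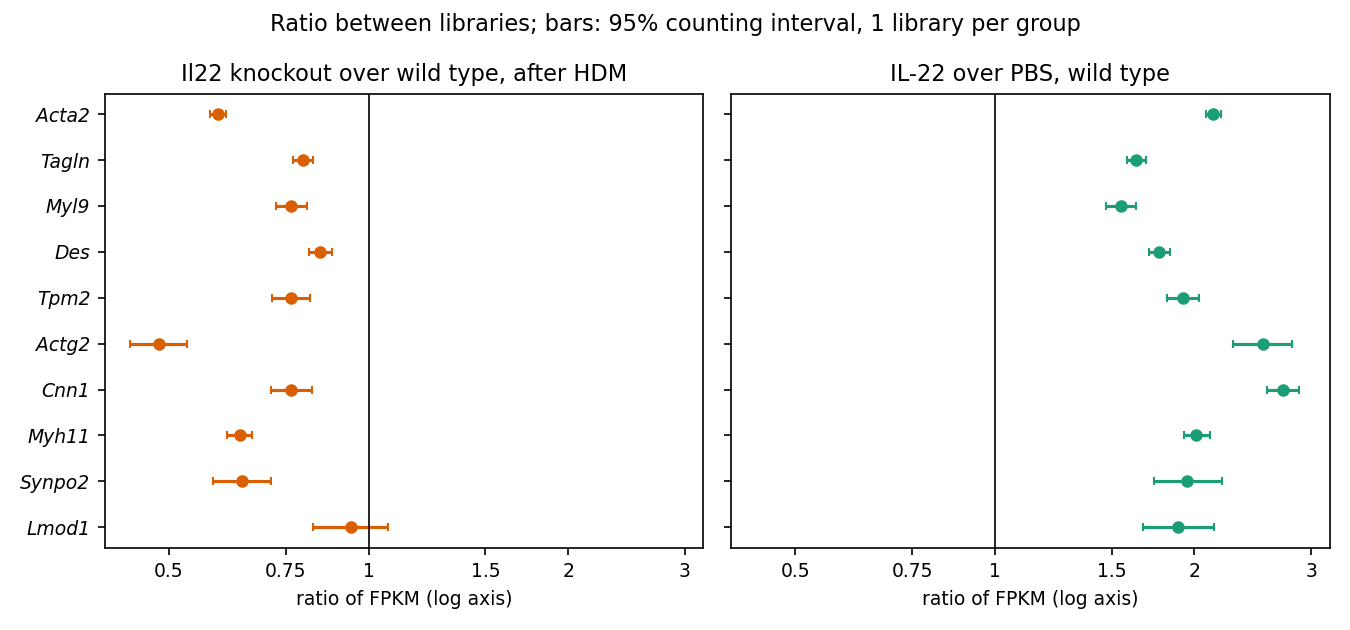
Ratio of FPKM on a log axis for each gene, knockout over wild type after HDM (left) and IL-22 over PBS (right), with bars for the exact 95% counting interval from estimated reads. In the left panel the bar of Lmod1 alone reaches 1, and in the right panel all points lie at 1.55 or more.

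The order of the levels was much the same in the 4 libraries. Acta2, Tagln, Myl9 and Des were the 4 highest in that order in each, and Synpo2 and Lmod1 the lowest pair. Across the 10 genes Spearman's rho between libraries was 0.95 to 0.99, over genes that share their libraries. Summed over the 10 genes the FPKM after HDM was 839.5 in wild type and 590.0 in the knockout, and it was 699.4 with PBS and 1329 with IL-22. As shares of total FPKM these were 0.123%, 0.0874%, 0.102% and 0.207%. The summed level was 1.42-fold higher in wild type than in the knockout and 1.90-fold higher with IL-22 than with PBS.

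The 10 genes did not move by one factor. Set against Acta2 in the same library, Tagln was at 71.1% in the wild-type HDM library and 95.5% in the knockout, and at 77.4% with PBS and 59.3% with IL-22. Myl9 stood at 42.7% and 55.1% in the HDM pair and at 56.9% and 41.3% in the other. Acta2 thus had the larger difference in both pairs, and Tagln and Myl9 the smaller. Cnn1 stood at 11.1% of Acta2 in wild type and 14.3% in the knockout, and at 17.2% with PBS and 21.9% with IL-22. Across the 10 genes the differences of the HDM pair and those of the other pair, which share no library, had a Pearson r of -0.54 and a Spearman rho of -0.39. Without Actg2 and Acta2, the genes with the lowest differences in the HDM pair, these were -0.17 and -0.07 over 8 genes. Leaving out other genes was not tried.

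**Figure D3:**
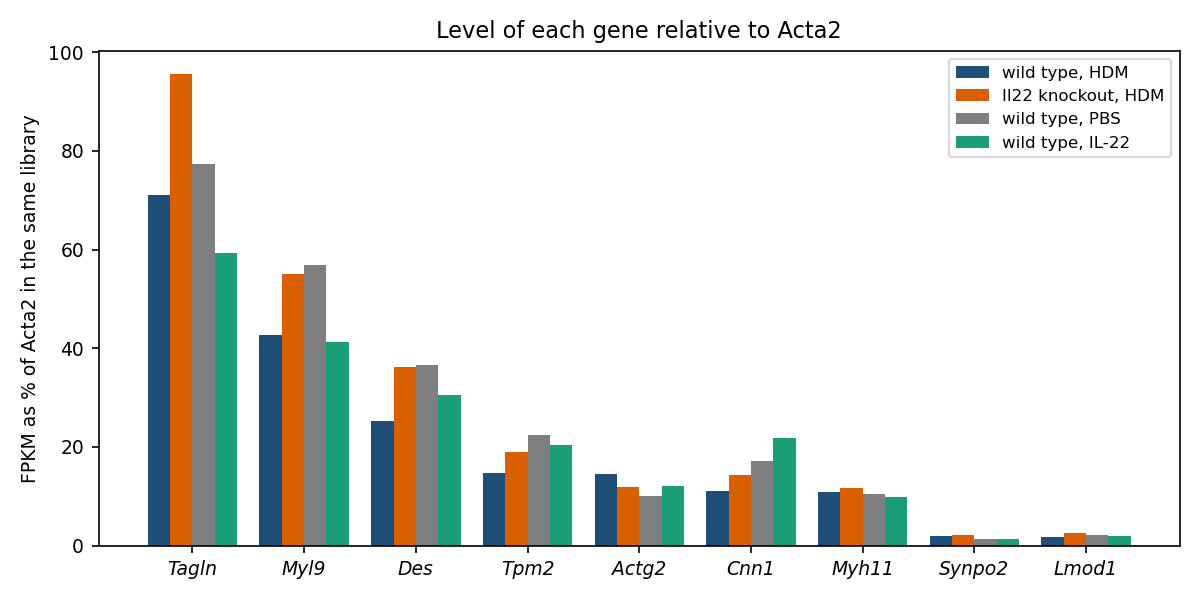
FPKM of the other 9 genes as a percentage of Acta2 in the same library (bars from 0, 4 libraries per gene). Tagln ranges from 59.3% with IL-22 to 95.5% in the HDM-treated knockout, while Myh11 stays between 9.86% and 11.6%.

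Whether the 2 tables share a normalization is not known, so values of different tables are set beside each other without a difference. The IL-22 library was the highest of the 4 for all 10 genes. The knockout HDM library was the lowest for 8, and the PBS library for Synpo2 and, by less than the digits shown here, for Tagln. The wild-type HDM library stood above the PBS library for Acta2 (286 and 209), Actg2 (41.7 and 21.1), Myh11 (30.7 and 21.8), Tagln (203 and 162) and Synpo2 (5.56 and 2.87). It stood below it for Cnn1 (31.7 and 35.9), Des (72.4 and 76.5) and Tpm2 (42.0 and 47.0), and was close to it for Myl9 (122 and 119) and Lmod1 (4.80 and 4.60).

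Actin and myosin genes are related in sequence, and reads could be shared between them. At windows of 50 bases, 0.352% of those of Acta2 and 0.422% of those of Myh11 occurred exactly in annotated transcripts of another gene, and none of those of the other 8 did. With up to 2 mismatches against the related genes, the shares were 5.30% for Actg2, 2.03% for Myh11, 1.81% for Acta2 and 1.76% for Myl9, and 0 for the other 6. The read length is not given in the sources used here.

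Relatives of the 10 genes, many of them expressed outside muscle too, were read in the same way. Between PBS and IL-22, of 18 measured relatives none was past the size rule (0.597% of all genes were higher and 0.189% lower), and the median was -0.01 (0.09 when libraries are scaled to a common total). The largest difference was that of Actc1, cardiac alpha-actin, at 139 with PBS and 224 with IL-22 (0.69), followed by Tpm1, alpha-tropomyosin, at 384 and 518 (0.43), and Lmod2 was at 3.51 and 4.64 (0.32). Actb, cytoplasmic beta-actin, was at 3096 FPKM with PBS and 2743 with IL-22. Actg1, cytoplasmic gamma-actin, was at 900.3 and 906. The nonmuscle myosin Myh9 was at 101 and 96.6, and Tagln2 and Cnn2, relatives of transgelin and calponin, were at 596 and 577 and at 267 and 251. In the HDM pair 12 of 17 measured relatives lay below 0 (median -0.23), against 46.1% of all genes. Actb was at 2367 in wild type and 1712 in the knockout, and Actg1 at 865 and 653. The relatives of sarcomeric muscle, Actc1 (94.2 and 42.2), Acta1 (5.53 and 2.84) and Lmod2 (1.70 and 0.663), had the lowest differences there. Actc1 alone was past the size rule, against 2.42% of all genes lower. Actc1 and Lmod2 are genes of heart muscle.

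By the median, other contractile, filament and adhesion genes differed less than the 10, while single genes among them lay within the range of the 10. Of 31 measured in the HDM pair 20 lay below 0 (median -0.12), against 46.1% of all genes. Of 32 measured with PBS and IL-22, 26 lay above 0 (median 0.20), against 58.6%. None of them was past the size rule in either pair. Over all genes 2.42% were lower and 0.549% higher in the HDM pair, and 0.189% and 0.597% in the other. Mylk, the myosin light chain kinase, was at 39.8 and 38.7 FPKM in the HDM pair and at 41.1 and 49.2 in the other. Smtn, smoothelin, a marker of contractile smooth muscle, was at 15.6 and 12.9 and at 26.4 and 35.7. Cald1, caldesmon, was at 67.1 and 61.8 and at 45.4 and 56.8. Aoc3, a surface amine oxidase of vascular smooth muscle and fat cells, was at 1.64 with PBS and 3.68 with IL-22, the largest difference of the list in that pair (0.83). Itga7, a laminin-binding integrin of muscle, had the largest difference of the list in the HDM pair (-0.83), at 5.93 and 2.91, and was at 3.83 and 4.97 in the other. Ldb3, a Z-disc protein of striated muscle, was at 2.84 and 1.46 and at 5.99 and 10.7, with differences of -0.65 and 0.75. Other genes of the list stood on the other side of 0 in the HDM pair, among them Cav1, caveolin-1 of endothelium and alveolar type I cells (360 in wild type and 587 in the knockout), and Itga8, an integrin of smooth muscle and fibroblasts (25.9 and 40.1).

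Among 21 measured genes of contraction signalling 1 was past the size rule, against 0.597% of all genes higher with IL-22. This was Kcnmb1, the smooth muscle beta subunit of the large-conductance calcium-activated potassium channel. It was at 1.65 FPKM with PBS and 4.85 with IL-22, a difference of 1.14, and at 3.28 and 2.26 in the HDM pair, a difference of -0.39. Mrvi1 (Irag1), the substrate of cyclic GMP kinase at the calcium store, was at 1.52 with PBS and 3.2 with IL-22. Casq2, the calsequestrin of heart and some smooth muscle, was at 3.85 and 7.09. In contrast, Ppp1r14a, the inhibitor of myosin phosphatase known as CPI-17, was at 83.0 in the wild-type and 134 in the knockout HDM library and at 213 with PBS and 182 with IL-22, on the other side of 0 in both pairs. The list's medians were -0.09 and 0.25. Of the 21 measured, 14 lay below 0 in the HDM pair, against 46.1% of all genes. With IL-22, 19 of 21 lay above 0, against 58.6%.

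Transcription factors of the smooth muscle programme differed among themselves. Myocd, myocardin, was under 1 FPKM in all 4 libraries, at 0.719 and 0.352 in the HDM pair and at 0.233 and 0.545 in the other, so it was not measured by the filter. Srf was at 18.2 and 15.2 FPKM and at 26.9 and 30.8. Fhl2, a LIM-domain cofactor found in heart and smooth muscle, was at 5.17 and 1.77 in the HDM pair, a difference of -1.15. It was the only gene of this list past the size rule in either pair, against 2.42% of all genes lower in the HDM pair. With PBS and IL-22 it was at 3.71 and 7.16, a difference of 0.79. Hmgb3, a chromatin protein, was at 20.4 and 12 in the HDM pair and at 18.1 and 16.9 in the other, with differences of -0.72 and -0.10. Klf4, a factor known to repress smooth muscle genes, was at 67 and 48.1 and at 66.2 and 79.8. Of 16 measured genes of this list 6 lay below 0 in the HDM pair and 13 above 0 in the other, with medians of 0.08 and 0.11. Over all genes these shares were 46.1% and 58.6%. Of the 94 genes of the 4 pathway lists together, receptors included, 81 were measured in both pairs. Of these, 36 lay below 0 in the HDM pair and above 0 in the other, against 27.8% of all genes.

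**Figure D4:**
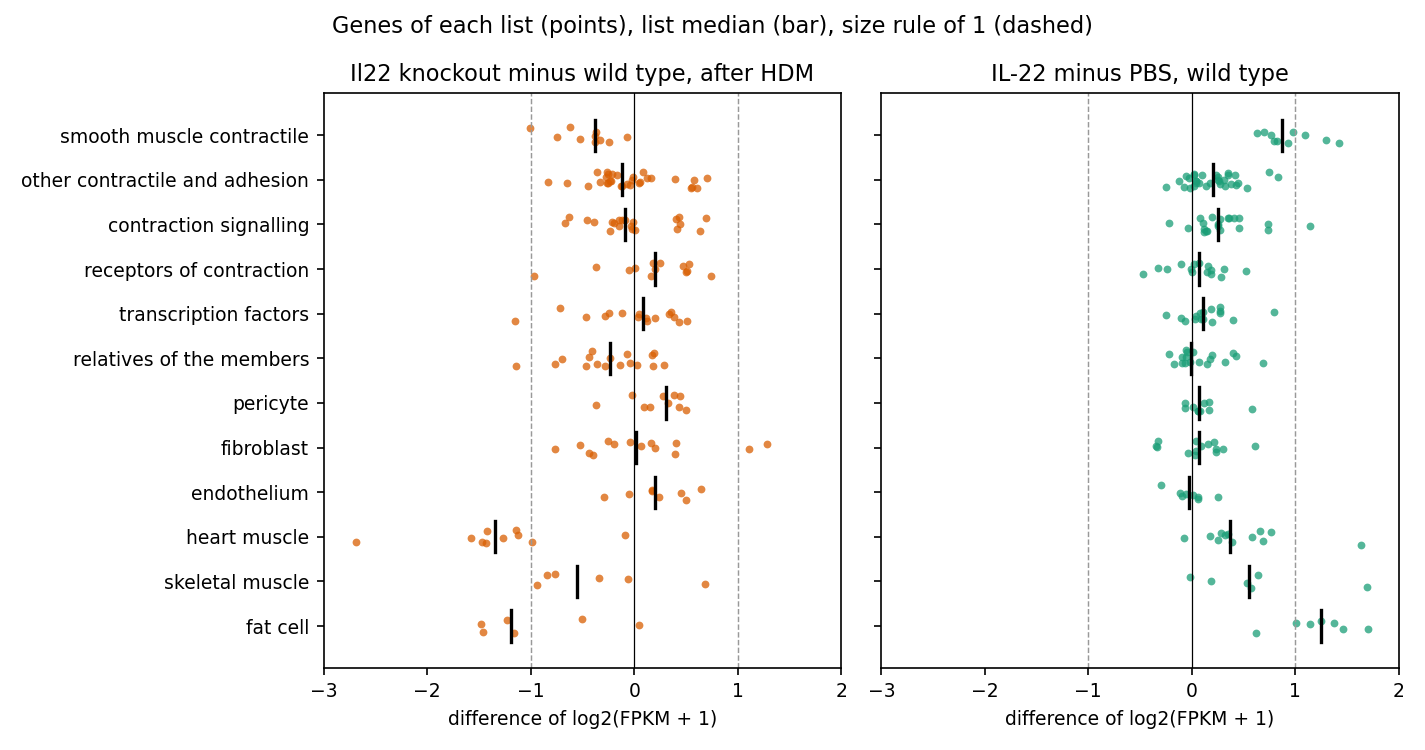
Difference of log2(FPKM + 1) for each measured gene (points) and the median (bar) of 12 gene lists, knockout minus wild type after HDM (left) and IL-22 minus PBS (right), with the size rule of 1 dashed. The smooth muscle contractile genes lie left of 0 and then right of 0 as a whole, as do most heart muscle and fat cell markers, while pericyte markers lie mostly right of 0 in the left panel and near 0 in the right.

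Markers of neighbouring cell types were set beside these differences. Of the 10 markers of pericytes, the mural cells of small vessels, 8 lay above 0 in the HDM pair (median 0.30, with 53.9% of all genes above 0). In the other pair 8 also lay above 0 (median 0.07, with 58.6% of all genes above 0). Over all genes 2.42% were lower and 0.549% higher in the HDM pair by the size rule, and 0.189% and 0.597% in the other. None of these pericyte markers was past it in either pair. Pdgfrb, their growth factor receptor, was at 11.1 and 13.7 FPKM and at 25.3 and 24. The summed level of the 10 pericyte markers was 178 and 232 in the HDM pair and 261 and 272 in the other. Rgs5 was the 1 marker with a difference over 0.5 with IL-22, at 0.621 with PBS and 1.42 with IL-22, and it was at 2.64 and 1.82 in the HDM pair (-0.37), so its directions were those of the smooth muscle genes in both pairs. Fibroblast markers had medians of 0.01 and 0.07 over 14 genes. Tcf21 (43.9 and 95.7 in the HDM pair) and Inmt (1031 and 2511) were higher in the knockout, against 0.549% of all genes. With IL-22 none was past the size rule, while 0.597% of all genes were higher and 0.189% lower. In the HDM pair 7 of the 14 lay below 0, among them Tgfbi, a matrix protein induced by TGF-beta (27.1 and 15.5, a difference of -0.77), and the collagens Col3a1 (127 and 88) and Col1a1 (37.6 and 27.4). The sign of the fibroblast median in the HDM pair turned to -0.02 when libraries were scaled by the median ratio. Endothelial markers had medians of 0.21 and -0.03 over 8 genes, the latter 0.08 when libraries are scaled to a common total.

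Heart muscle and fat cell markers moved with the smooth muscle genes in both pairs. Of 12 heart muscle markers, which the sleeve of cardiac muscle around the pulmonary veins also expresses, 10 were measured in the HDM pair. All 10 lay below 0, against 46.1% of all genes, and 8 were lower by the size rule, against 2.42%. Their median was -1.35, and the atrial light chain Myl7 was at 88.1 and 28.9 FPKM. With IL-22 11 of 12 lay above 0 (median 0.37), against 58.6% of all genes. Nppa, the atrial peptide, was the 1 past the size rule, at 6.54 and 22.5, against 0.597% of all genes. Tnnt2 (0.77), Actc1 (0.69) and Myl3 (0.66) had differences within the range of the 10 smooth muscle genes, and Nppa (1.64) lay above it. The rest of the heart muscle markers lay below that range, from -0.08 for Myh7 to 0.58 for Myl7, with Tnni3 at 0.32 and Myh6 at 0.18. The summed heart muscle level was 400 and 154 in the HDM pair and 785 and 1145 in the other. Of 8 fat cell markers 4 of 6 measured were lower in the HDM pair (median -1.20), against 2.42% of all genes. With IL-22 6 of 7 measured were higher (median 1.25), against 0.597%. Adipoq, adiponectin, was at 4.66 and 1.53 and at 6.65 and 20. The summed fat cell level was 156 and 64.3 in the HDM pair and 243 and 571 in the other. Lep, leptin, was listed at 0 in both HDM libraries. Among skeletal muscle markers 6 of 12 stayed under 1 FPKM in all 4 libraries, Myh1, Myh2 and Myh4, the fast myosins, among them at 0.227 or less. Tnnt3, the fast skeletal troponin T, was higher with IL-22 by the size rule, at 2.84 with PBS and 11.4 with IL-22, a difference of 1.69 that was above that of each of the 10 smooth muscle genes. In the HDM pair Tnnt3 was at 1.46 and 1.36. The 6 markers that were measured had medians of -0.55 and 0.55, and the summed level was 20.8 and 13.5 in the HDM pair and 28.0 and 47.5 in the other. The part of heart, fat or skeletal muscle tissue in the smooth muscle differences was not tested.

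**Figure D5:**
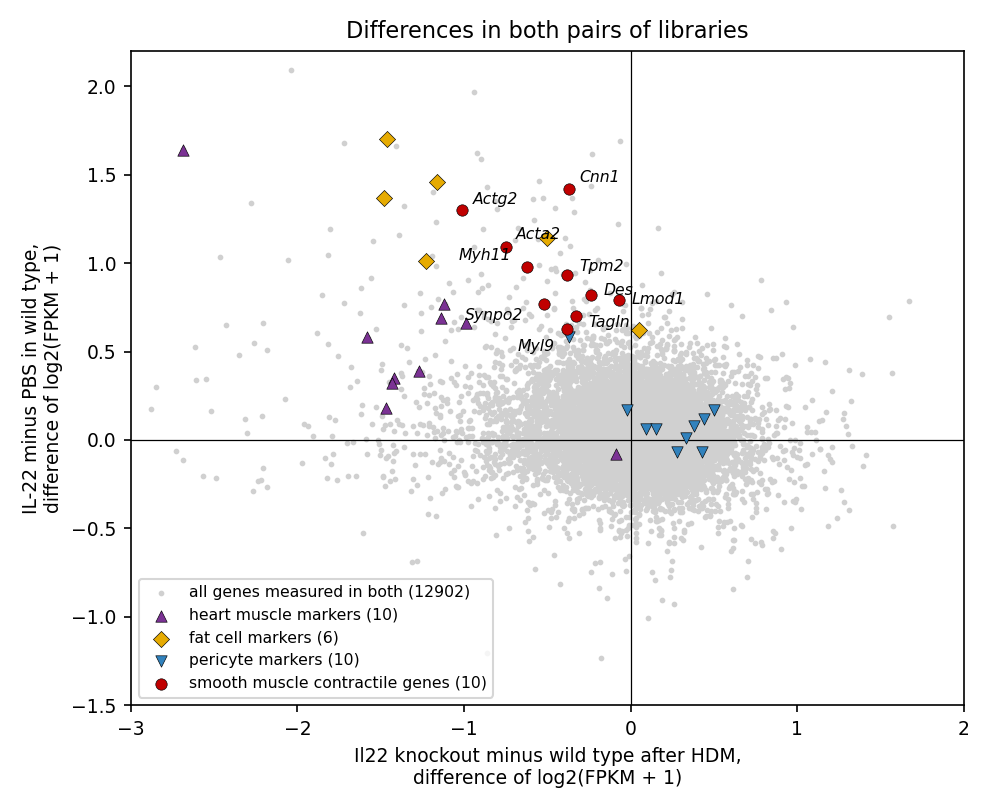
Each gene's difference in the HDM pair (horizontal) against its difference in the PBS and IL-22 pair (vertical), for all 12902 genes measured in both (grey, 39 of them outside the axes), the 10 smooth muscle genes (red circles) and heart muscle, fat cell and pericyte markers. The red circles lie in the upper left, as do most heart muscle and fat cell markers.

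The 10 genes outside the set with the most similar pair of differences were not genes of muscle. Likeness was the distance to the pair of medians, -0.38 and 0.87, among 7927 named genes whose mean FPKM reached 5 in both tables, over 4 libraries. The nearest were Spata18, Rac2, Efcab1, Spn, Fcgr4, Ltf, Clec11a, Tmem232, Rsph4a and Fgl2, at distances of 0.09 to 0.22, and none of them is on the 18 lists used here. Rac2, a GTPase of blood cells, was at 20.8 and 14.4 FPKM in the HDM pair and at 18.8 and 35.9 in the other. Spata18 was at 9.24 and 7.13 and at 8.86 and 18. The smooth muscle genes themselves lay 0.05 to 0.77 from their medians, and 885 other genes lay within the larger of these distances.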

How the data were processed

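Whole-lung RNA was measured in 4 libraries, 1 per group, assigned from the sample titles. The authors deposited 1 table per pair, with 1 FPKM value per gene and library. CASAVA 1.8.2, TopHat2, Cufflinks 2.2.1 and build mm10 are named per the submitters' processing notes, while tool settings, read length and any scaling of libraries were not given in the sources used here. There were 23746 rows per table. Of the symbols, 25 that had become dates were restored from their accessions, and rows sharing a symbol were summed.

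Relative depth came from the whole-read steps of FPKM under 0.2, and reads from transcript length less 200 bases (GENCODE M21 on mm10). Of 8478 low values 62.2% lay no more than 0.1 reads from a whole number, where an even spread gives 20%. The depth scale was set from low values of the same libraries, so part of this excess is built in. Reads behind a gene are estimates, with exact binomial 95% intervals. No p-value was computed. The members and the 17 other lists were chosen with earlier results of these data known. All members were named, with up to 4 genes per list by largest difference, a set of further genes whatever their values, and others chosen after their values were seen. The steps were tested on simulated reads with planted 3-fold and 6-fold changes and counting error only. Of 100 genes planted at 3-fold, 96 were called in the HDM pair and 99 in the other, and at 6-fold all 100 were. No variation between animals was simulated, and no change as small as those of the members was planted. Alternatives covered the pseudocount, 3 scalings, the filter and the size rule. The tools were matplotlib 3.10.9, scipy 1.17.1, pandas 2.3.3 and numpy 2.4.6 under Python 3.11.15.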

Additional observations from a re-analysis of the deposited data

How the results depend on the processing

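No difference has a replicate check, and no paired analysis was possible because each group has 1 library. The direction of all 10 genes in both pairs held with a pseudocount of 0.1, under the 3 scalings and without the filter; a mean FPKM of at least 5 left 8 and 9 genes. Scaling to a common total put the median with IL-22 at 0.98 and the genes higher by the size rule at 5 in place of 3. Scaling to a common total without Scgb1a1 put Actg2 short of the size rule and the count in the HDM pair at 0 in place of 1. With the size rule at 1.5-fold on the log2(FPKM + 1) scale the counts were 3 and 10. Over all alternatives single genes ran from -1.05 to -0.05 in the HDM pair and from 0.59 to 1.52 in the other. Among all genes, 322 lower and 73 higher after HDM became 488 and 131 with a pseudocount of 0.1 and 852 and 429 at 1.5-fold, and 193 were lower at a mean FPKM of at least 5. With IL-22, 79 higher became 132 with a pseudocount of 0.1, and 25 lower and 79 higher became 61 and 259 at 1.5-fold.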

Other observations

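Of 13 receptors that contract or relax smooth muscle and were measured in the HDM pair, 10 lay above 0, against 53.9% of all genes. Their median was 0.20, and none was past the size rule, against 0.549% of all genes higher and 2.42% lower. Ptgir, the prostacyclin receptor, had the largest difference of the list, at 3.29 and 1.19 in the HDM pair. Chrm2, a muscarinic acetylcholine receptor of airway smooth muscle, was at 1.72 and 2.09 and at 2.56 and 4.09, while Chrm3, its partner in contraction, was under 1 FPKM in all 4 libraries, from 0.269 to 0.606. Ednra, an endothelin receptor, was level at 14.7 to 15.3 FPKM.

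A few genes of nitric oxide and cyclic GMP signalling, picked out after their values were seen, are given as values, beside 53.9% of all genes above 0 in the HDM pair. Gucy1a3 and Gucy1b3, the subunits of the nitric oxide receptor, were at 35.6 and 48.8 and at 22.8 and 30.6 FPKM. Pde5a, which breaks down cyclic GMP, was at 22.8 and 30.5, and Prkg1, the kinase that cyclic GMP activates, at 2.34 and 3.49. With IL-22 their differences were 0.12, 0.15, 0.14 and 0.27. Mrvi1, the kinase's substrate, lay below 0 in the HDM pair, at 1.81 and 1.43 (-0.21). These genes come from the contraction signalling list, of which 14 of 21 measured genes lay below 0 in the HDM pair. Gucy1a3 is also a pericyte marker.

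Medians of other lists are given for the HDM pair and then for the PBS and IL-22 pair. They were -0.08 and 0.10 for airway epithelium and 0.22 and -0.12 for alveolar epithelium. For mesothelium they were -0.03 and 0.07, and for nerve and glia -0.11 and -0.14. The airway and visceral smooth muscle markers, which include Actg2, had medians of 0.18 and 0.36. Of 5 measured in the HDM pair 2 lay below 0, against 46.1% of all genes. These were Actg2 (-1.01) and Mylk (-0.04), while Chrm2 (0.18), Hhip (0.18) and Foxf1a (0.34) lay above 0. With IL-22 all 6 measured lay above 0, against 58.6% of all genes. Of 8 cartilage markers found, 7 were under 1 FPKM in all 4 libraries.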
